A study of Mus musculus with 40 samples.

Results

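The PGC-1 coactivators, the estrogen-related receptors (ERRs) and the factors they act through are covered here by 8 genes out of 21833 protein-coding genes: Ppargc1a, Ppargc1b, Pprc1, Esrra, Esrrb, Esrrg, Nrf1 and Tfam. Nrf1 is nuclear respiratory factor 1. Peaks were collected over each gene body and 20 kb on each side, on GRCm38 with GENCODE M21 genes. These windows held 773 of the 457842 peaks in the 32 lists, of which 224 were H3K4me3, 379 H3K27ac, 167 H3K4me1 and 3 H3K27me3 peaks.

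Brown adipose tissue came from wild type mice of the C57BL/6N strain, aged 20 weeks. Chromatin immunoprecipitation with sequencing (ChIP-seq) was done for H3K4me3, H3K27ac, H3K4me1 and H3K27me3, with an input, in each of 8 mice. Mice 1 and 2 were warm on normal chow diet (NCD) and mice 4 and 5 were cold on NCD. Mice 7 and 8 were warm on high-fat diet (HFD) and mice 10 and 11 were cold on HFD. Cold was 4 °C for 24 h. HFD was given for 12 weeks after chow up to 8 weeks of age. Each condition thus had 2 mice, and each temperature and each diet had 4. The same mouse gave all 4 marks. The methods leave it unclear whether a mouse number stands for 1 animal or for pooled tissue of a pair.

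PGC-1α (Ppargc1a) and PGC-1β (Ppargc1b) are coactivators that bind nuclear receptors and other factors and raise the transcription of genes for mitochondria and fatty acid oxidation, and PRC (Pprc1) is their more distant relative. The ERRs are orphan nuclear receptors that recruit PGC-1 to genes of oxidative metabolism, while NRF1 acts on nuclear genes of the respiratory chain and on Tfam, which encodes the factor that packages and transcribes mitochondrial DNA. In brown fat, β-adrenergic signalling through cAMP induces Ppargc1a, which has a canonical promoter and an alternative promoter upstream. H3K4me3 marks active promoters, H3K27ac active promoters and enhancers, H3K4me1 enhancers, and H3K27me3 genes silenced by Polycomb.

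Lists differed in length. The H3K27ac list was shortest in mouse 7, with 3224 peaks, followed by mouse 10 with 14511, and longest in mouse 11 with 40604. For H3K4me3 the same mice 7 and 11 had the extremes, 13517 and 24104. H3K4me1 lists of mice 1, 7 and 10 held 592, 12 and 18 peaks, so that a missing H3K4me1 peak in these mice was not informative. Fold enrichment over input was used only as a percentile within a list, because the folds of different lists are not on 1 scale. As a check of the tissue, H3K4me3 peaks overlapped a start site of 6 to 7 of 7 brown adipocyte markers in every mouse. Of 10 skeletal muscle markers 0 to 3 had H3K4me3, in mice 1, 2, 4 and 5 (3 each), 11 (2), 8 and 10 (1 each) and 7 (0), and 0 to 3 had H3K27ac, in mice 11 (3), 2 (2), 7 (0) and the other 5 (1 each). Over the mice, Mb had H3K27ac in 7 and H3K4me3 in 1, Actn3 H3K4me3 in 7 and H3K27ac in 1, Acta1 and Pygm H3K4me3 in 4, Pygm and Myog H3K27ac in 1, and the other 5 (Ckm, Myh1, Myh4, Tnnt3 and Myod1) neither mark in any mouse. By diet, 1 of the 10 muscle markers had H3K4me3 in all 4 NCD mice and in no HFD mouse. This was so for 0.148% of genes with H3K4me3 when summits within 1000 bp of a start were counted. Endothelial markers had H3K4me3 at 3 to 4 of 4 genes, macrophage markers at 0 to 1 of 4, and the 2 neuron and 2 hepatocyte markers at none. Which cells of the tissue carried a peak cannot be told from these bulk lists.

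Ppargc1a (ENSMUSG00000029167.13, chr5:51454250-51567726, minus strand) has a canonical start at 51553922 and the upstream alternative start at 51567726, which is 13804 bp upstream. The 250 bases before each start are shown because the results below turn on which of the starts carried marks. They are RefSeq GRCm38.p6 sequence read 5′ to 3′ on the minus strand, at chr5:51553922-51554171 and chr5:51567726-51567975. Capitals mark the cAMP response element TGACGTCA, 1 of 4 motifs searched on both strands with the ERR element TNAAGGTCA, the NRF1 core TGCGCA and the GABP site CCGGAAGT.
Ppargc1a canonical: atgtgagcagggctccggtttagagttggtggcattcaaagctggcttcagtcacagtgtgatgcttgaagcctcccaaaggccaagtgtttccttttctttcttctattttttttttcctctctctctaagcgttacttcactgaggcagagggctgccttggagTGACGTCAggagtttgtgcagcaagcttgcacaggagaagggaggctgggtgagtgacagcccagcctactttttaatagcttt
Ppargc1a upstream alternative: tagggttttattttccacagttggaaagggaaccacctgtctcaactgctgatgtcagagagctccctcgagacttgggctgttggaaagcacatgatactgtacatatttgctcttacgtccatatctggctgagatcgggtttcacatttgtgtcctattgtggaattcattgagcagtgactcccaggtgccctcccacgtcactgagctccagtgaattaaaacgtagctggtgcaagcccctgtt
The canonical sequence held 1 cAMP response element, 84 to 77 bp before the start, and none of the other motifs. RefSeq places a curated start 123 bp farther upstream, so the element is downstream of that one. TGACGTCA occurred in 1.55% of the 32851 RefSeq promoters of the same length. None of the 4 motifs had a full match in the upstream sequence. Only exact matches were searched, so shorter or variant cAMP response elements were not looked for in either sequence. G and C made up 48.8% and 48% of the bases, below the median promoter at 52.4%, with 3 and 5 CpG dinucleotides.

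H3K4me3 overlapped the canonical Ppargc1a start (within 1000 bp on each side) in all 8 mice. Its percentile of fold was 72.0 and 86.4 in warm NCD mice, 91.2 and 52.2 in cold NCD mice, 99.4 and 51.3 in warm HFD mice and 74.0 and 86.3 in cold HFD mice. The ranges of the 4 conditions overlapped. These peaks were broad, at 1640 to 5617 bp, and were wider than a median of 98.7% of the peaks in their list. Their summits lay 992 to 1353 bp downstream of the start. H3K27ac also overlapped the canonical start in 8 of 8 mice, at percentiles from 41.7 in mouse 1 to 97.5 in mouse 4, with a median of 85.4.

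The upstream alternative start had H3K4me3 in 4 of 8 mice, which were mice 1, 2, 8 and 11. Its percentiles were 7.87 and 28.2 in these warm NCD mice, 42.8 in the warm HFD mouse and 50.8 in the cold HFD mouse, and the peak was 209, 366, 1087 and 1963 bp wide. It ranked below the canonical start in all 8 mice, counting no peak as lowest. By temperature the peak was present in 3 warm and 1 cold mice (two-sided Fisher's exact p = 0.486), and by diet in 2 and 2 (exact p = 1). Neither cold NCD mouse had H3K4me3 or H3K27ac there. H3K27ac was present in mice 8 and 11 only and H3K4me1 in mouse 11 only. Mouse 8 and mouse 11 had the longest H3K27ac lists of the 8 mice, and the part of list length in these counts was not tested. Muscle markers with H3K4me3 numbered 3, 3, 1 and 2 of 10 in mice 1, 2, 8 and 11, against 3, 3, 0 and 1 in mice 4, 5, 7 and 10, which lacked the peak.

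**Figure D1:**
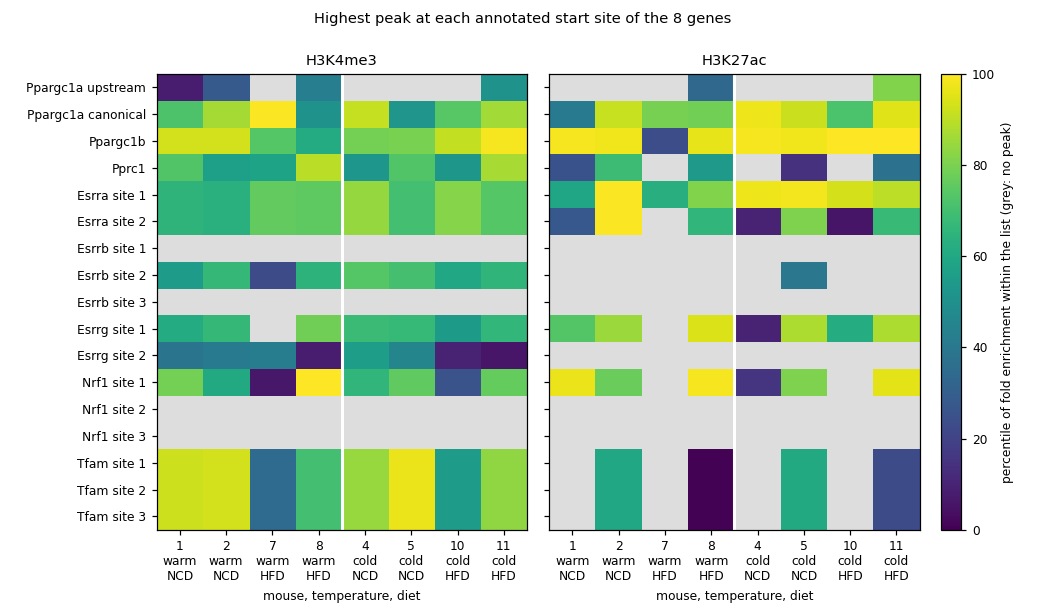
Percentile of fold enrichment within the list (colour, 0 to 100) of the highest peak overlapping 1000 bp on each side of each annotated start site, for H3K4me3 (left) and H3K27ac (right), with 1 column per mouse and warm mice left of the white line. Grey marks no peak: the upstream Ppargc1a start is coloured for H3K4me3 in mice 1, 2, 8 and 11, while the canonical start is coloured for both marks in all 8 mice.

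**Figure D2:**
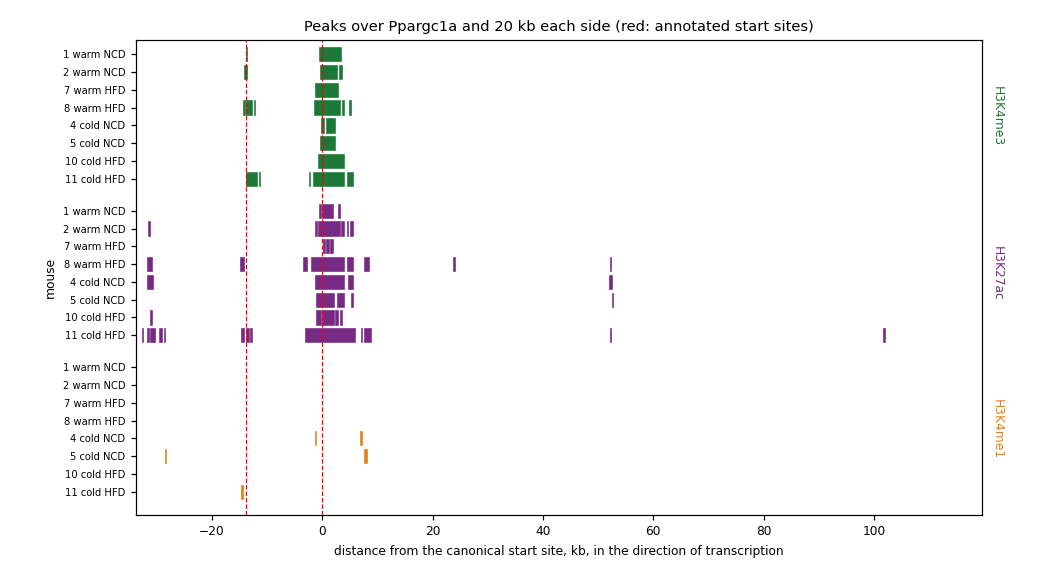
Every H3K4me3, H3K27ac and H3K4me1 peak over Ppargc1a and 20 kb on each side, as bars by mouse, against distance from the canonical start in kb (negative is upstream); dashed red lines are the canonical start at 0 and the upstream alternative start. Marks of all 8 mice gather at the canonical start, while the upstream start and the distal H3K27ac peaks are marked in some mice only.

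Distal H3K27ac at Ppargc1a, defined as peaks whose summit was more than 1000 bp from every annotated start of any gene, numbered 1 and 5 in warm NCD mice, 4 and 4 in cold NCD mice, 2 and 7 in warm HFD mice and 3 and 10 in cold HFD mice. The highest counts were in mice 11 and 8, whose H3K27ac lists were the longest. Since the summits at the canonical start lay close to the 1000 bp limit, some of these peaks belonged to the promoter itself. With a limit of 2500 bp the counts were 1, 4, 2, 2, 0, 5, 3 and 8 in mice 1, 2, 4, 5, 7, 8, 10 and 11. Merged over mice, distal peaks formed 10 regions, of which 3 were present in 4 mice or more.

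The first, chr5:51547952-51557377, was present in all 8 mice and ran across the canonical start into the gene. The second, chr5:51584176-51585768, lay 17681 bp upstream of the alternative start and was present in mice 2, 4, 8, 10 and 11. The third, chr5:51501209-51501852, lay 52227 bp downstream of the canonical start inside the gene and was present in mice 4, 5, 8 and 11. The last 2 regions had neither H3K4me1 nor H3K4me3 in any mouse. The 300 bases around the median summit of the upstream region are shown as the farthest recurrent H3K27ac before the gene (chr5:51585257-51585556, RefSeq GRCm38.p6, minus strand), with no motif to capitalise.
Ppargc1a upstream H3K27ac region: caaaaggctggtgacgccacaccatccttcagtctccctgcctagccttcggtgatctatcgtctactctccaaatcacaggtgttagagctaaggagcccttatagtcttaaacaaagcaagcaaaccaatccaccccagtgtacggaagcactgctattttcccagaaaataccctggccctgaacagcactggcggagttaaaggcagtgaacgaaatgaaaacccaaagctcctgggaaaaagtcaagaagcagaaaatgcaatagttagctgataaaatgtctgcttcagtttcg
Of 10428 distal H3K27ac regions present in 4 mice or more outside 1 chromosome that was left out, 4.07% held an ERR element and 0.288% a cAMP response element in windows of the same length.

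The 3 protein-coding genes nearest to Ppargc1a in start-site percentile over its 8 H3K4me3 and 8 H3K27ac lists were Secisbp2l, Map3k11 and Clcn6. The mean absolute difference was 20.6, 21.4 and 21.6 percentile points over 16 lists. The measure used the summit rule described further on, which gives Ppargc1a a 0 in 4 lists (H3K4me3 of mice 5 and 10, H3K27ac of mice 4 and 5) where a peak did overlap the canonical start. It took the highest peak at either start. The values for H3K4me3 in mouse 1 and H3K27ac in mice 8 and 11 came from the upstream start.

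Ppargc1b (ENSMUSG00000033871.14, chr18:61298136-61400431, minus strand) carried the most H3K27ac of the 8 genes. It has 1 start site, and its intron holds the miRNA gene Mir378a. H3K4me3 overlapped the start (within 1000 bp on each side) in all 8 mice at percentiles from 61.6 in mouse 8 to 98.6 in mouse 11, with a median of 85.4. The peak was 1146 bp wide in mouse 7 and 4262 to 7131 bp in the other 7 mice, wider than at least 99.7% of the peaks in those 7 lists. H3K27ac overlapped the start in all 8 mice, at a percentile of 23.5 in mouse 7 and of 96.4 to 99.99 in the other 7 mice.

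Distal H3K27ac peaks at Ppargc1b numbered 7 and 20 in warm NCD mice, 25 and 31 in cold NCD mice, 1 and 25 in warm HFD mice and 6 and 32 in cold HFD mice. Mice 7, 10 and 1, which had the shortest H3K27ac lists, had the lowest counts, and those of the other 5 mice did not overlap them. Per 100 kb of window, Ppargc1b had more distal peaks than 88.3% to 99.9% of the 10239 genes with any such peak, depending on the mouse. The same share was 65.3% to 90.6% for Ppargc1a. Its distal peaks formed 42 regions, 39 with a median summit in the gene body, and 26 overlapped an H3K4me1 peak in at least 1 mouse. In mice 2, 4 and 5 alone H3K4me1 gave 28, 15 and 28 peaks over the gene and its flanks.

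Of these 42 regions, 10 were present in 4 mice or more. Those at 42055, 30868 and 16204 bp downstream of the start were each present in 7 mice, all but mouse 7, and overlapped H3K4me1 in 3, 3 and 4 mice. A region 16037 bp upstream of the start was also present in 7 mice, all but mouse 1. Regions at 79407 and 21647 bp downstream were present in mice 2, 4, 5, 8 and 11, that at 67814 bp in mice 2, 4, 8 and 11, that at 37816 bp in mice 1, 2, 4, 5, 8 and 11, and that at 26138 bp in mice 4, 5, 8 and 11. The region 9673 bp downstream was present in mice 4, 5, 8 and 11 and had no H3K4me1 in any mouse. Of all 42, 20 were seen in cold mice only and 4 in warm mice only, and 9 of the 20 were in mouse 11 alone, whose list was the longest. Of all distal regions 39.0% were seen in cold mice only and 14.3% in warm mice only. None of the 42 was present in all 4 cold mice and in no warm mouse, against 0.379% of 35051 distal regions.

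**Figure D3:**
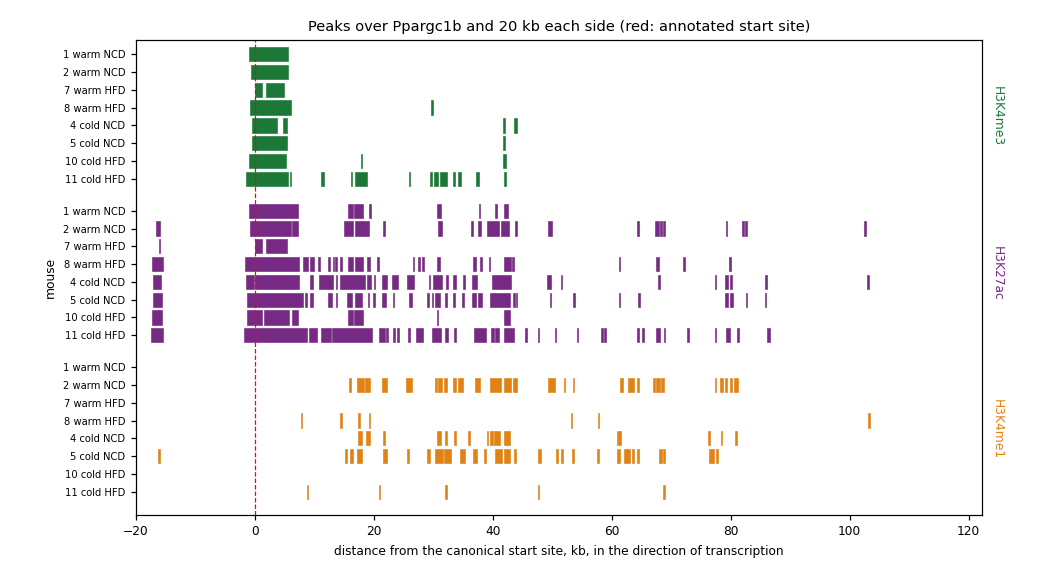
Every H3K4me3, H3K27ac and H3K4me1 peak over Ppargc1b and 20 kb on each side, as bars by mouse, against distance from the start in kb (negative is upstream); the dashed red line is the start. H3K27ac runs through the first part of the gene in mice 2, 4, 5, 8 and 11 and is sparse in mice 1, 7 and 10, whose lists were shortest.

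Pprc1 (ENSMUSG00000055491.14, chr19:46044886-46072915, plus strand) had H3K4me3 at its start in all 8 mice, at percentiles from 52.7 to 89.7. H3K27ac was present in mice 1, 2, 5, 8 and 11 at 25.3, 68.5, 14.1, 54.1 and 37.4, and absent in mice 4, 7 and 10. Only 4 distal H3K27ac peaks were found over all mice. The window also holds the starts of Ldb1 and Nolc1. Of its 28 H3K27ac peaks 17 had summits within 1000 bp of annotated starts other than the Pprc1 start counted here.

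Esrra (ENSMUSG00000024955.14, chr19:6910977-6921813, minus strand) encodes ERRα and had both marks at its start in 8 of 8 mice. The H3K4me3 percentile was 65.1 and 63.6 in warm NCD, 84.2 and 70.2 in cold NCD, 75.8 and 75.1 in warm HFD and 81.7 and 73.5 in cold HFD mice. That of H3K27ac was 58.8 and 99.4, 97.5 and 98.4, 63.0 and 81.1, and 93.4 and 89.9 in the same order. These are the highest peaks at the first start, at 6921808. Their H3K27ac summits lay 455 to 492 bp upstream of it in all 8 mice, and the H3K4me3 summits 444 to 689 bp downstream. Esrra has a second start 757 bp downstream of the first, which the same H3K4me3 peak overlapped (within 1000 bp on each side) in all 8 mice. A separate H3K27ac peak had its summit 420 to 613 bp downstream of the first start in 7 mice, all but mouse 7, at percentiles of 27.6, 79.2, 9.89, 80.6, 65.7, 5.68 and 67.7 in mice 1, 2, 4, 5, 8, 10 and 11. It ranked below the upstream peak in each of them. H3K4me1 was at the second start in mouse 2 only. Because the upstream H3K27ac summit stood at nearly the same place in all mice, the 300 bases around its median are shown (chr19:6922129-6922428, RefSeq GRCm38.p6, minus strand), with capitals for the ERR element TNAAGGTCA, here on the opposite strand.
Esrra upstream H3K27ac summit: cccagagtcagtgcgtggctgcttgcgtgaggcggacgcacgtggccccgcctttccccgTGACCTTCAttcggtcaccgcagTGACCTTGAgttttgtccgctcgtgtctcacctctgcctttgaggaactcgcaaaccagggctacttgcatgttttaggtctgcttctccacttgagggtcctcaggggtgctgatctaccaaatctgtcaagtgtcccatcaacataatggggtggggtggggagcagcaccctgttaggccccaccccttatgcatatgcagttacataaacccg
The window held 2 ERR elements, 560 to 552 and 537 to 529 bp before the start. Of the 10428 recurrent distal H3K27ac windows 4.07% held at least 1 and 0.153% at least 2, and of the 32851 promoter sequences of 250 bases 1.14% held at least 1. Neither set is like the Esrra window, which lay within 1000 bp of a start but beyond the 250 bases before it. A match of letters is not a bound site. Windows of 300 bases at the recurrent distal regions of Ppargc1a, Esrrg and Nrf1 held none of the 4 motifs. Ppargc1b lies on the chromosome that was left out, so motifs were not searched there. The 250 bases before the Esrra start held the NRF1 core TGCGCA, 31 to 26 bp before it (6.43% of promoters). Esrra had 1 distal H3K27ac peak, in mouse 8. Its window also holds starts of Catsperz, Gpr137, Kcnk4, Prdx5 and Trmt112. Of its 32 H3K27ac peaks 16 had summits within 1000 bp of annotated starts other than the Esrra starts counted here.

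Esrrb (ENSMUSG00000021255.17, chr12:86361117-86521628, plus strand) encodes ERRβ, known for its part in pluripotent cells. Of its 3 start sites the second, at 86421644, had H3K4me3 in all 8 mice, at percentiles from 23.4 in mouse 7 to 73.6 in mouse 4. No mark had a peak at the first or at the last start in any mouse. H3K27ac was present at the second start in mouse 5 only, at a percentile of 39.6, so that in 7 of 8 mice this start carried H3K4me3 without H3K27ac. The only distal H3K27ac peaks, in mice 8 and 11, were at the same place, 69296 bp beyond the last start, where 2 mice also had H3K4me1. H3K27me3 was called once in the window, in mouse 5, at the start of another gene and 13894 bp upstream of the first Esrrb start.

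Esrrg (ENSMUSG00000026610.13, chr1:187608791-188214885, plus strand) encodes ERRγ, a receptor of oxidative tissues such as muscle and brown fat. The first start had H3K4me3 in 7 mice, all but mouse 7, at percentiles from 54.6 to 78.2. H3K27ac was present there in the same 7 mice, at 9.85 in mouse 4 and at 61.8 to 94.9 in the other 6. The second start, 389036 bp downstream, had H3K4me3 in all 8 mice at lower percentiles, from 6.20 to 55.8, and H3K27ac in none. A further 15 H3K4me3 and 16 H3K27ac peaks over all mice had summits at other annotated starts in the window. RefSeq also gives Esrrg promoters at 187651758 and 187652241, whose marks were not counted separately. Distal H3K27ac peaks numbered 2 and 5, 5 and 3, 0 and 5, and 2 and 11 in warm NCD, cold NCD, warm HFD and cold HFD mice, and mouse 11 had more than any other mouse. Of 11 regions 4 were present in 4 mice or more, at 57617, 97212 and 154336 bp from the first start and at 142294 bp from the second. The first of these (chr1:187665278-187667621) was present in all 4 cold mice and in 2 of 4 warm mice (Fisher's exact p = 0.429). The second overlapped H3K4me3 in 5 mice although it was far from the Esrrg starts.

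Nrf1 (ENSMUSG00000058440.14, chr6:30047988-30153458, plus strand) used its first start only: H3K4me3 was present there in 8 mice and at neither of the other starts in any. The percentile was lowest in mice 7 and 10, at 6.36 and 25.7, lay between 60.7 and 79.2 in 5 others and reached 99.8 in mouse 8. H3K27ac was present in 6 mice, all but mice 7 and 10, at 15.2 in mouse 4 and at 77.1 to 98.8 in the other 5. Distal H3K27ac peaks numbered 4, 6, 6, 5, 0, 7, 1 and 5 in mice 1, 2, 4, 5, 7, 8, 10 and 11. Of 6 regions 3 were recurrent, at 72975, 79233 and 119686 bp downstream of the first start. The last lay beyond the gene, 1682 bp from the nearest start, in a flank that holds the Mir182, Mir183 and Mir96 cluster, and overlapped H3K4me3 in 5 mice. The 2 H3K27me3 peaks of the window were in mouse 5, in the same flank.

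Tfam (ENSMUSG00000003923.14, chr10:71225464-71238280, minus strand) had a single H3K4me3 peak in every mouse and no distal peak of any mark. The summit of that peak lay within 1000 bp of each of the 3 annotated starts. H3K27ac was present in mice 2, 5, 8 and 11 at percentiles of 59.9, 60.6, 0.750 and 22.7 and absent in the other 4, so this promoter carried H3K4me3 in 8 mice and H3K27ac in 4. GABP (nuclear respiratory factor 2) is a known activator of Tfam, and 30 bases around the GABP site are shown with the motif CCGGAAGT in capitals (chr10:71238073-71238102, RefSeq GRCm38.p6, minus strand).
Tfam GABP site: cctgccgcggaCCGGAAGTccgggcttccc
It lies 47 to 40 bp before the RefSeq start, and 2.88% of promoters held this motif.

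Whether temperature or diet went with presence of a start-site peak was asked over all genes, with a peak counted when its summit was within 1000 bp of a start. No member had H3K4me3 or H3K27ac in all 4 mice of one temperature and none of the other. Over all genes tested this was so for 0.0634% with H3K4me3 and 0.101% with H3K27ac. By diet no member was divided so either, against 0.148% and 0.129% of genes. No gene passed the adjustment over all genes in these tests, since the smallest p of a two-sided exact test of 4 against 4 is 0.0286. By this rule, which took either start, Ppargc1a counted as present in 6 mice for each mark, whereas by overlap it was present in 8. At the canonical start alone these were 5 mice for H3K4me3 and 4 for H3K27ac, because its summits lay near the limit. The others counted through the upstream alternative start. Cutting the lists to equal length can only remove peaks, and why a peak was absent from an uncut list was not tested. With the same number of peaks taken from every list, the mice with H3K27ac went from 4 to 0 at Tfam, 5 to 0 at Pprc1, 1 to 0 at Esrrb, 7 to 1 at Esrrg, 6 to 2 at Ppargc1a and 6 to 4 at Nrf1, but stayed at 8 for Esrra and 6 for Ppargc1b. H3K4me3 stayed at 8 mice for 7 members and went from 6 to 5 at Ppargc1a.

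Start-site percentiles, of the highest peak at any start of the gene and 0 for no peak, were compared by exact permutation (two-sided, 70 assignments). H3K4me3 percentiles of 0 of 8 members did not overlap between temperatures, against 4.5% of 14192 genes. By diet 1 of 8 did not overlap, against 3.09% of genes in either direction and 2.43% higher in NCD. This was Tfam, at 92.4, 93.2, 84.4 and 96.9 in NCD mice and 34.8, 70.1, 54.8 and 83.3 in HFD mice. The mean fell by 31.0 percentile points from 91.7 ± 5.26 to 60.8 ± 20.9 (SD, n = 4 each). The exact permutation p was 0.0286 and, adjusted over all genes, 0.847, so the difference did not pass the adjustment. Ranked by −log10 p instead of fold, the NCD and HFD mice overlapped and the difference was -16.1. Without mice 7 and 10, which had the shortest H3K4me3 lists and the lowest Tfam values, it was -15.0 (exact permutation p = 0.0667, the smallest that 4 against 2 mice allow).

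For H3K27ac 1 of 8 members did not overlap between temperatures, against 1.12% of 10849 genes in either direction and 1.12% higher in cold. This was Ppargc1b, at 98.8, 98.0, 99.7 and 99.99 in cold mice and 0, 0, 23.5 and 96.4 in warm mice. The difference of 69.1 percentile points had an exact permutation p of 0.0286 and an adjusted p of 1. The zeros of mice 1 and 2 were not missing peaks. Peaks of 8313 and 6911 bp overlapped the start (within 1000 bp on each side), with summits 3138 and 3287 bp downstream. With any overlapping peak counted, these mice were at 98.7 and 97.7, and the difference was 20.0 with an exact permutation p of 0.0571. By diet 0 of 8 members were without overlap, against 1.54% of genes.

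Numbers of distal H3K27ac peaks did not separate by temperature in any of the 7 members with such peaks, against 0.899% of 10239 genes, nor by diet, against 0.146%. At Ppargc1b they averaged 23.5 ± 12.1 in cold and 13.3 ± 11.1 in warm mice (SD, n = 4 each; exact permutation p = 0.257), and at Ppargc1a 5.25 ± 3.20 and 3.75 ± 2.75 (exact permutation p = 0.571). At Esrrg the means were 5.25 ± 4.03 and 3 ± 2.45 (exact permutation p = 0.543), and at Nrf1 4.25 in each group. By diet Ppargc1a averaged 5.5 ± 3.70 on HFD and 3.5 ± 1.73 on NCD (exact permutation p = 0.457), and Ppargc1b 16 ± 14.9 and 20.8 ± 10.2 (exact permutation p = 0.714). The cold effect did not differ by diet for any member in distal peaks (exact permutation p of 0.629 to 1 over 2520 assignments). The mice with the shortest lists had the fewest distal peaks, and the part of list length was not tested. When counts were divided by the length of the list, Ppargc1a was higher in all 4 HFD than in all 4 NCD mice (exact permutation p = 0.0286). This scaling separated 2.79% of genes by diet in either direction and 0.801% with HFD higher. With every list cut to the same number of peaks, Ppargc1a did not separate by diet (difference 0.25, exact permutation p = 1). At Ppargc1b the differences were then 0.75 by temperature (exact permutation p = 0.714) and 1.25 by diet (exact permutation p = 0.143).

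**Figure D4:**
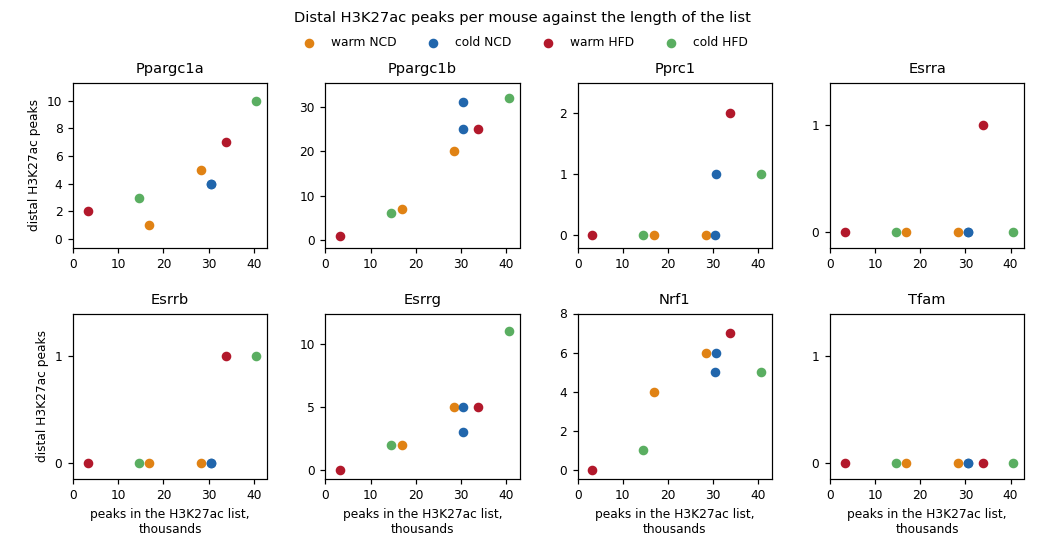
Number of distal H3K27ac peaks in each gene's window (y axis, 1 point per mouse, coloured by condition) against the length of that mouse's H3K27ac list (x axis, in units of 1000 peaks). Ppargc1b reaches 32 peaks and the short lists of mice 1, 7 and 10 give at most 7, while Tfam is at 0 in all mice.

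Of the 75 distal regions of the 8 genes none was present in all 4 mice of a temperature and in none of the other, against 0.388% of 35051 regions, and none by diet, against 0.0913%. Present in 4 mice or more were 20 of the 75, and in 1 mouse 36, against 30.9% and 41.4% of all distal regions. Without mouse 10, 4 regions in Ppargc1b, at 23451, 32184, 33665 and 85986 bp from its start, were present in the 3 remaining cold mice and in none of 4 warm mice. With mouse 10 left out, 2.46% of 34958 regions separated by temperature.

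H3K4me1 was found mostly away from start sites. Of its 167 peaks 83 were in the window of Ppargc1b, 22 at Nrf1, 20 at Esrrg, 14 at Esrrb, 12 at Esrra, 11 at Pprc1, 5 at Ppargc1a and 0 at Tfam. Only 1 of the 5 Ppargc1a peaks and 1 of the 12 Esrra peaks had a summit at a start of the gene itself. The 3 H3K27me3 peaks, of which 1 was near Esrrb and 2 were near Nrf1, all came from mouse 5, whose H3K27me3 list of 6428 peaks was the longest (20 to 1392 in the other mice). None lay at a start of Esrrb or Nrf1.

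The balance of H3K27ac and H3K4me3 was compared as bases covered in each window, by a two-sided exact permutation test of 8 against 8 lists. At Ppargc1b H3K27ac covered more in 8 of 8 mice, with 21183 ± 10731 bp against 7170 ± 3019 bp (SD, n = 8 each; adjusted p = 0.00842, exact permutation). Over all genes 5.46% had more H3K27ac by this test and 57.5% more H3K4me3. H3K4me3 covered more at Pprc1, Esrra, Esrrb and Tfam, in 8 of 8 mice each. These 4 of 8 members are close to the share of all genes. Tfam had 1243 ± 317 bp of H3K4me3 and 228 ± 282 bp of H3K27ac (adjusted p = 0.00153, exact permutation), and Esrrb 1640 ± 481 and 126 ± 194 bp (adjusted p = 0.00100, exact permutation). Esrra had 7599 ± 2600 and 3143 ± 1838 bp, and Pprc1 6220 ± 1860 and 1852 ± 1361 bp, with the starts of other genes in their windows included.

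Ppargc1a, Esrrg and Nrf1 did not pass. At Ppargc1a H3K27ac covered 6623 ± 4472 bp and H3K4me3 4710 ± 2283 bp, with H3K27ac higher in 5 of 8 mice (adjusted p = 0.380, exact permutation). At Esrrg it was higher in 4 and at Nrf1 in 6 of 8 mice. Paired within mice, with the mouse as a replicate block, the same 5 members passed and adjusted p was 0.0165 for each (exact sign-flip test), while for Ppargc1a it was 0.176.

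**Figure D5:**
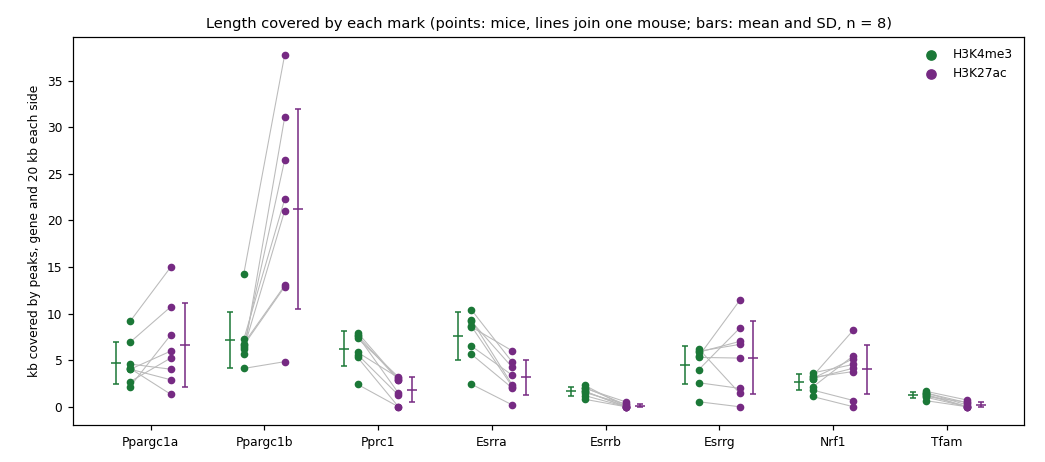
Length covered by H3K4me3 and H3K27ac peaks over each gene and 20 kb on each side, in kb; points are mice, grey lines join the marks of a mouse, and bars are means with SD (n = 8). Ppargc1b lies far above in H3K27ac, and every line falls from H3K4me3 to H3K27ac for Pprc1, Esrra, Esrrb and Tfam.

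Around these genes, 35 genes of the pathway were counted. H3K4me3 overlapped the start in all 8 mice for 33 of 35 and H3K27ac for 13 of 35, against 43.8% and 3.92% of all protein-coding genes. None of the 35 was present in all 4 mice of a temperature or diet and absent in the other 4, for either mark. By summits within 1000 bp of a start, this was so for only 0.0634% to 0.148% of all genes with the mark. Of 9 inducers of Ppargc1a, among them Creb1, which binds cAMP response elements, and Sirt1, a deacetylase that acts on PGC-1α, all had H3K4me3 in 8 mice, but only Mef2d had H3K27ac in 8. Of 12 partners and corepressors 6 had H3K27ac in all mice, including Pparg, Ppara and Perm1, the PGC-1 and ERR-induced regulator of muscle. Perm1 had a median H3K27ac percentile of 97.8. Of 6 genes for mitochondrial DNA upkeep, such as Polrmt, the mitochondrial RNA polymerase, none had H3K27ac in all 8 mice. Of 8 oxidative targets 6 did, and median H3K27ac percentiles were 98.0 for Cycs (cytochrome c), 97.4 for Pdk4 and 97.2 for Ucp1. Ckmt2, a mitochondrial creatine kinase, had no peak of any mark at its start in any mouse.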

How the data were processed

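Peak lists of 4 histone marks from 8 mice were used; the 8 inputs entered only through them. Per the labels and methods, the authors trimmed reads with cutadapt, aligned them to GRCm38 with Bowtie2 and called peaks with MACS2 against the input of the same mouse. Not given in the sources used here were tool versions and the cut-off for calling. The deposited lists give, per peak, a fold enrichment (a ratio of ChIP to local background) and −log10 p and −log10 q values by the authors, the smallest −log10 q being 1.30. No peak ended beyond the 21 reference chromosomes compared. The number of peaks stands in for depth, which is unknown, and limits what an absent peak means.

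Starts came from GENCODE M21 transcripts (comprehensive set), joined within 500 bp. A gene's own starts were those of its protein-coding transcripts and of its transcripts subject to nonsense-mediated decay. Transcripts flagged as lacking their true start were left out. Presence (Fisher's exact test), within-list percentile, distal counts and bases covered (exact permutation tests) were computed over all protein-coding genes and adjusted by Benjamini-Hochberg, with a threshold of 0.05. Python 3 with numpy and scipy was used, and the tests were tested on simulated data. The marks of a mouse share its tissue, so they were also compared with the mouse as a replicate block. The members, gene lists, motifs and tests were chosen with earlier results of these data known. Named are the 8 members with every start site so defined, their distal regions in at least 4 mice, the listed pathway genes and 3 nearest genes. Alternatives were windows, q filters, equal list lengths, flanks, ranks, left-out mice and, chosen after seeing the data, overlap for percentiles and the basic annotation. P-values compare a difference with those under other groupings of these mice, or of their lists for the marks, and refer to these mice only.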

Additional observations from a re-analysis of the deposited data

Results flagged for a closer look

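Among groups of 4 or 8 mice, 112 were examined for a mouse standing apart from the others (Dixon's criterion), and 16 had one. In 8 of these the other mice were all at 0, so that the single value stood apart by construction, and the rate of about 1 in 20 that chance gives does not apply to such groups. Distal H3K27ac counts stood apart at Ppargc1a in cold mice (10, mouse 11), at Pprc1 in warm (2) and NCD mice (1), at Esrra in warm and HFD mice (1 each, mouse 8) and at Esrrb in warm and cold mice (1 each, mice 8 and 11). H3K27ac percentiles stood apart at Ppargc1b in HFD mice (lowest 23.5, mouse 7), at Esrra in NCD mice (lowest 58.8, mouse 1), at Esrrb in cold and NCD mice (39.6, mouse 5) and at Tfam in warm (59.9) and HFD mice (22.7). H3K4me3 percentiles did so at Esrrb in HFD mice (lowest 23.4, mouse 7) and at Esrrg in cold mice (lowest 54.6, mouse 10). H3K4me3 covered 14268 bp at Ppargc1b in mouse 11, the highest of 8 mice.

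In 2 of 24 exact permutation tests the effect of cold differed between diets at p = 0.0286, and neither passed the adjustment (adjusted p = 0.343). The H3K27ac percentile of Ppargc1a was lower in cold by 66.6 points on NCD (-66.6) and higher by 54.5 on HFD. Its values in mice 8 and 11 (33.7 and 81.1) came from the upstream start, and those of the other mice were 0 or from the canonical start. With any overlapping peak counted in place of the summit rule, the difference between diets had an exact permutation p of 0.429. The H3K4me3 percentile of Ppargc1b changed by -13.7 on NCD and by 27.1 on HFD, with the same exact permutation p by overlap.

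At a start of Ppargc1a predicted by RefSeq 561931 bp upstream of the canonical one, outside the window, H3K4me3 was present in 7 mice, all but mouse 7, and H3K4me1 in 3, without H3K27ac.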

How the results depend on the processing

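Of 192 alternative counts of members without overlap between groups, 177 stayed within 1.5 times the value reported and 15 did not. For single genes the sign turned in 8 of 242 alternatives, all of distal peak counts that passed no test on either side: Ppargc1b by diet (-4.75) became 1.75 at −log10 q of at least 5, 1.25 with equal list lengths, 0.25 without mouse 7 and 7.75 without mice 7 and 10, Ppargc1a by temperature (1.5) became -0.868 relative to list length and -0.0833 without mouse 11, Esrrg by diet (0.75) became -1.42 without mouse 11, and Nrf1 by diet (-2) became 0.75 without mice 7 and 10. For H3K27ac percentiles by temperature the count of 1 (Ppargc1b) became 0 with overlapping peaks, an alternative chosen after seeing the data, and 0 when ranked by −log10 p, and was 1 to 2 leaving out each mouse (2, with Esrra, without mouse 2). For H3K4me3 percentiles by diet the count of 1 (Tfam) became 0 by −log10 p and 2 without mice 7 and 10 (with Pprc1), and was 1 to 2 leaving out each mouse (2 without mouse 1, with Esrrb, or mouse 4, with Esrra). For H3K27ac percentiles by diet 0 became 1 without mice 7 and 10 (Esrrg) and was 0 to 1 leaving out each mouse (1, Esrra, without mouse 1). Percentile calls over all genes rose too. Leaving out each mouse they numbered 152 to 465 for H3K27ac by temperature (121 with all mice). For H3K4me3 by diet they numbered 570 to 1724 (439), and for H3K27ac by diet 193 to 723 (167). Under the remaining alternatives, which include leaving out mice 7 and 10, the diet counts reached at most 2244 and 1247. Distal peaks by diet went from 0 to 1 relative to list length (Ppargc1a), against 2.79% of all genes. They went to 2 without mice 7 and 10 (Ppargc1a, Esrrb), against 12.5%. Distal regions by temperature went from 0 to 4 without mice 7 and 10, against 2.53% of all regions. They were 0 to 4 leaving out each mouse (4 without mouse 10, against 2.46%). By diet, regions went from 0 to 3 without mice 7 and 10, against 4.29%. They were 0 to 1 leaving out each mouse (1 without mouse 1, against 0.964%). Why these counts moved was not tested, apart from fewer mice making separation easier.

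Over all genes, counts moved by more than 1.5 times in 93 of 192 alternatives. Presence by temperature gave 9 genes for H3K4me3 (4 to 118 under alternatives) and 11 for H3K27ac (5 to 56), and by diet 21 (21 to 245) and 14 (9 to 103). Percentiles gave 638 (616 to 1974) and 121 (57 to 656) by temperature and 439 (440 to 2244) and 167 (123 to 1247) by diet. Distal peaks gave 92 (20 to 667) and 15 (6 to 1272), and regions 136 (13 to 882) and 32 (13 to 1498). Genes with more H3K27ac than H3K4me3 numbered 941 (526 to 1344). With the mouse as a replicate block they numbered 940, and 10632 genes had more H3K4me3, while 1 and 4 members passed as before. With equal list lengths, start-site H3K27ac was lost in all mice at Tfam, Pprc1 and Esrrb. Depth is unknown, so an absent peak may only be one not called.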
